A study of Mus musculus with 8 samples.

Results

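The zinc finger genes described here are the genes of cultured adult mouse cardiomyocytes whose symbol is ZNF or ZFP followed by a number alone. They were chosen by that spelling and by a total of at least 40 counts over the 8 libraries. Of 493 symbols with that spelling, 45 met the total, 43 spelled ZNF and 2 spelled ZFP, out of 33514 symbols listed and 7926 with a count. The 4 siHoxa5 libraries came from C57BL/6 cardiomyocytes transfected with a small interfering RNA (siRNA) against Hoxa5, a homeobox transcription factor gene. The 4 siN libraries came from C57BL/6 cardiomyocytes transfected with a negative control siRNA. All 8 cultures were treated with phenylephrine, an alpha-1 adrenergic agonist used to make cultured cardiomyocytes hypertrophic, at 100 µM for 24 h from 24 h after transfection, and poly-A RNA was sequenced. No library without phenylephrine was analysed here, so both groups show the treated state, and the labels give neither the animals' age nor whether each repeat was a separate animal or culture. If they were not, the p-values measure only a spread between libraries that may be technical.

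Zinc finger proteins are the largest family of transcription factors in mammals. In the C2H2 type, 2 cysteines and 2 histidines hold a zinc ion and fold a short finger, and a row of fingers reads DNA, or in some members RNA or a partner protein. Many members with long rows of fingers also carry a KRAB box, which recruits the corepressor TRIM28 and through it the methyltransferase SETDB1 to silence DNA, while members without one act at promoters, in chromatin complexes, in splicing or at the mitotic spindle.

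The files spell mouse genes as human symbols, so the mouse gene behind each symbol was looked up by its RefSeq synonym or symbol, which worked for 44 of the 45 genes. Of these, 36 were matched by synonym and 8 by symbol. For a ZNF symbol, a match by symbol rests on the shared number rather than on a listed synonym. ZNF35 was not matched and ZNF76 is the mouse gene Zfp523. The other genes have a mouse name made of Zfp and the same number.

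The fingers themselves are shown for 4 genes described below, as the mouse coding strand in GRCm38 (mm10), with the cysteine and histidine codons in capitals. ZNF827 was the zinc finger gene that passed the test, and its mouse gene Zfp827 (chr8:79028437-79193766, plus strand) encodes 9 finger patterns, of which the first, the fourth and the seventh stand at chr8:79070403-79070465, chr8:79175904-79175966 and chr8:79180139-79180207, each within 1 exon. ZNF281 and ZNF148 are paralogs that are compared below, and their first and second fingers are shown so that they can be read against each other. They lie at chr1:136626063-136626125 and chr1:136626147-136626209 in Zfp281, and at chr16:33466912-33466974 and chr16:33468117-33468179 in Zfp148, all on the plus strand and within 1 exon. ZNF207 held the most counts, and both of its finger patterns are shown because they are all it has. Each is interrupted by an intron, between chr11:80383491-80385963 and chr11:80385970-80387807 on the plus strand, and is printed as spliced.
ZNF827 finger 1: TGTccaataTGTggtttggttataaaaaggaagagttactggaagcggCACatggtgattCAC
ZNF827 finger 4: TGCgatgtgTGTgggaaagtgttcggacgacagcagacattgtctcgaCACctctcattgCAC
ZNF827 finger 7: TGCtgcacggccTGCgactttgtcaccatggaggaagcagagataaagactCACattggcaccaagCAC
ZNF281 finger 1: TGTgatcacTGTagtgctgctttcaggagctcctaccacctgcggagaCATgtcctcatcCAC
ZNF148 finger 1: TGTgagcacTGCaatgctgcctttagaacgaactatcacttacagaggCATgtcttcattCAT
ZNF281 finger 2: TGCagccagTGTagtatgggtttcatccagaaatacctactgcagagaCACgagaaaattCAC
ZNF148 finger 2: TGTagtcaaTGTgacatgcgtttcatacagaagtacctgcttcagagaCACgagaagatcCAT
ZNF207 finger 1: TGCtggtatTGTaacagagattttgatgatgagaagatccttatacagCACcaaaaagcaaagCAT
ZNF207 finger 2: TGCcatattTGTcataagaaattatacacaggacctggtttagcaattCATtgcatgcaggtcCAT
Fingers 1, 2 and 3 of ZNF281 were identical to those of ZNF148 with the same number at 71.4%, 77.8% and 69.8% of their 63 bases. Fingers 1 and 2 of ZNF281 matched fingers 2 and 1 of ZNF148 at 52.4% and 50.8% of bases, and finger 2 of ZNF281 matched finger 3 of ZNF148, and finger 3 finger 2, at 66.7% each, little less than the 69.8% of the fingers numbered 3.

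Library totals were low, at 615390, 560190, 619942 and 574882 counts in siHoxa5 libraries 1 to 4, against 635824 to 658192 counts in the siN libraries. The siRNA's target could not be checked, because HOXA5 had 9 counts over the siHoxa5 libraries and 8 over the siN libraries (rate ratio 1.23, exact 95% interval 0.421 to 3.66, counting error only). The first principal component, which held 25.8% of the variance, separated the groups. siHoxa5 libraries 2 and 4 lay furthest from siN on it, at -10.8 and -11.0. The other siHoxa5 libraries were at -2.74 and -4.69, and siN at 6.30 to 7.77. On the second component, with 16.2% of the variance, siHoxa5 libraries 2 and 4 lay at opposite ends, at 8.30 and -13.4. The summed level of cardiomyocyte markers was 67328 to 72329 CPM (counts scaled to a common library size with edgeR's TMM factors) in siHoxa5 and 53543 to 57081 CPM in siN, from 8 of 14 listed genes, with MYL2, MYL3, TNNI3, PLN, NPPA and NPPB at 0. The myosin heavy chain genes MYH6 and MYH7 made up most of that sum, at 30432 ± 1417 and 29350 ± 921 CPM in siHoxa5 and 21752 ± 839 and 24770 ± 407 CPM in siN (SD, n = 4 each). Of the 8 genes, all tested, MYH6, MYH7, ACTN2 and TTN were higher in siHoxa5 and TNNT2, encoding cardiac troponin T, was lower, at 133 ± 26.1 CPM in siHoxa5 and 181 ± 30.1 CPM in siN (log2 fold change -0.44, adjusted p = 0.0257). Fibroblast markers summed to 10904 to 12846 CPM in siHoxa5 and 10179 to 10848 CPM in siN, nearly all from COL1A1 and COL1A2, with 6 of 8 listed genes having a count and LUM and TCF21 at 0. In bulk RNA fewer cells of a type and less RNA per cell cannot be told apart, and the part of these differences in the zinc finger results was not tested.

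Most ZNF and ZFP symbols had no count in these libraries. Of the 493, 374 had no count in any library, 74 had between 1 and 39 counts in all, and the 45 genes described here held 27382 of the 28000 counts, or 97.8%. A listed 0 sets no upper limit on a gene's level here, because cardiomyocyte genes such as MYL2, MYL3, TNNI3 and PLN were at 0 too, beside 126464 counts of MYH6 and 131765 of MYH7. Totals just over the minimum were 40 for ZNF655 and 48 each for ZNF143 and ZNF503, and totals just under it were 38 for ZNF277, 37 for ZNF770 and 36 for ZNF32. A mouse gene was matched by name to 259 of the symbols, of which 161 had no count, and the 234 without a match included 21 with a count. A match by name need not be the true counterpart: ZNF230 was matched through a synonym to Rnf141, which has no Zfp name.

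The matched genes with no count had more finger patterns, by their median, than the measured ones, as shown in the plot of finger patterns by detection. A finger was counted as an in-frame run of cysteine, 2 to 4 codons, cysteine, 12 codons, histidine, 3 to 5 codons and histidine in the longest annotated coding sequence. The 44 matched genes with at least 40 counts had a median of 7 patterns, 52 genes with fewer counts had 9, and 141 genes with none had 11. Each mouse gene was entered once, with the counts of 10 genes listed under 2 symbols added up, none of them among the 45. Such a pair, as ZFP14 and ZNF14 for Zfp14, was joined by name, and whether both symbols stand for the same gene was not checked. For Zfp3, Zfp28 and Zfp41 the ZFP symbol had no count, so their place among genes with fewer counts rests on the other symbol. At least 10 patterns were found in 27.3% of the first set, 48.1% of the next and 58.2% of the last. These shares describe which genes were measured and were not tested. Among the measured genes the number ran up to 36 in ZNF142 and 33 in ZNF462, a gene for a vertebrate chromatin regulator, while ZNF503 and ZNF703, of the NET family of developmental repressors, held none and 4 genes held 1.

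**Figure D1:**
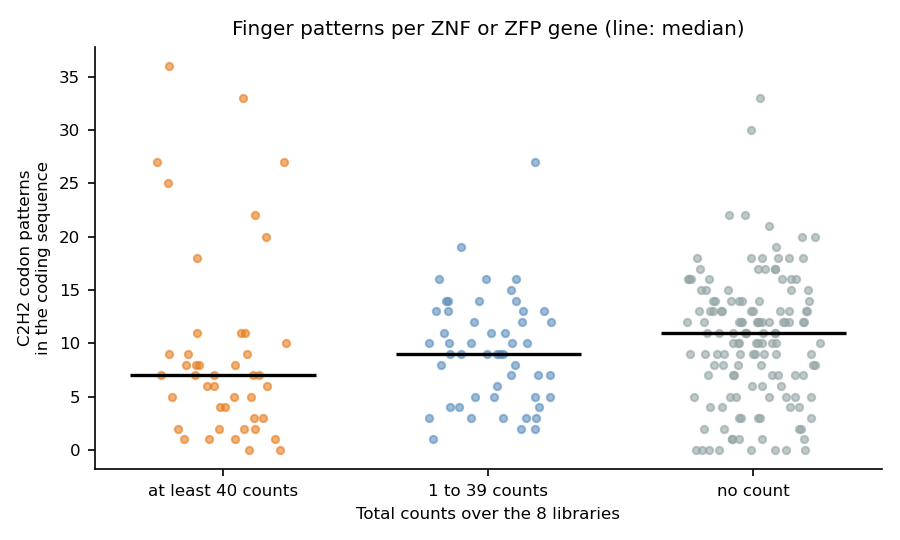
Number of C2H2 finger patterns in the longest coding sequence of each matched ZNF or ZFP gene (vertical axis), for genes with at least 40 counts, 1 to 39 counts and no count over the 8 libraries. Each point is 1 mouse gene and the line is the median, at 7, 9 and 11 patterns.

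As a group, the zinc finger genes took nearly the same share of the transcriptome in both conditions. They held 0.554%, 0.572%, 0.563% and 0.531% of the counts in siHoxa5 libraries 1 to 4, against 0.527%, 0.545%, 0.572% and 0.556% in siN libraries 1 to 4. The shares interleaved, at 0.555 ± 0.0177% in siHoxa5 and 0.550 ± 0.0191% in siN (SD, n = 4 each). Summed levels were 5660 ± 133 CPM in siHoxa5 and 5541 ± 193 CPM in siN. Without ZNF207, the most abundant gene, they were 4174 ± 90.0 CPM, from 4105 to 4306, in siHoxa5 and 3934 ± 159 CPM, from 3734 to 4110, in siN, ranges that overlapped only between 4105 and 4110 CPM.

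Of the 45 genes, 35 had enough counts for the test across all 3020 genes, and 1 of the 35, ZNF827, was higher in siHoxa5 at an adjusted p under 0.05 (edgeR quasi-likelihood test, Benjamini-Hochberg over all tested genes). No gene was lower, although 7 of the 35 had an unadjusted p under 0.05. Over all tested genes 7.12% were called, 3.74% higher and 3.38% lower, and 19.6% had an unadjusted p under 0.05, so the zinc finger genes' 20% at an unadjusted p under 0.05 was near the background. Their log2 fold changes ran from -0.36 to 0.60 with a median of 0.09, 22 above 0 and 13 below, while all tested genes had a median of -0.0037 and 49.4% above 0. The median standard error of a zinc finger gene was 0.18, the size of the median distance of its log2 fold change from 0, also 0.18. Intervals were narrow enough in 33 of the 35 to exclude a 2-fold change either way, and in 18 to exclude a change of 1.5-fold either way. Without siHoxa5 libraries 2 and 4 the median was 0.07, and 1 gene was higher and none lower.

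**Figure D2:**
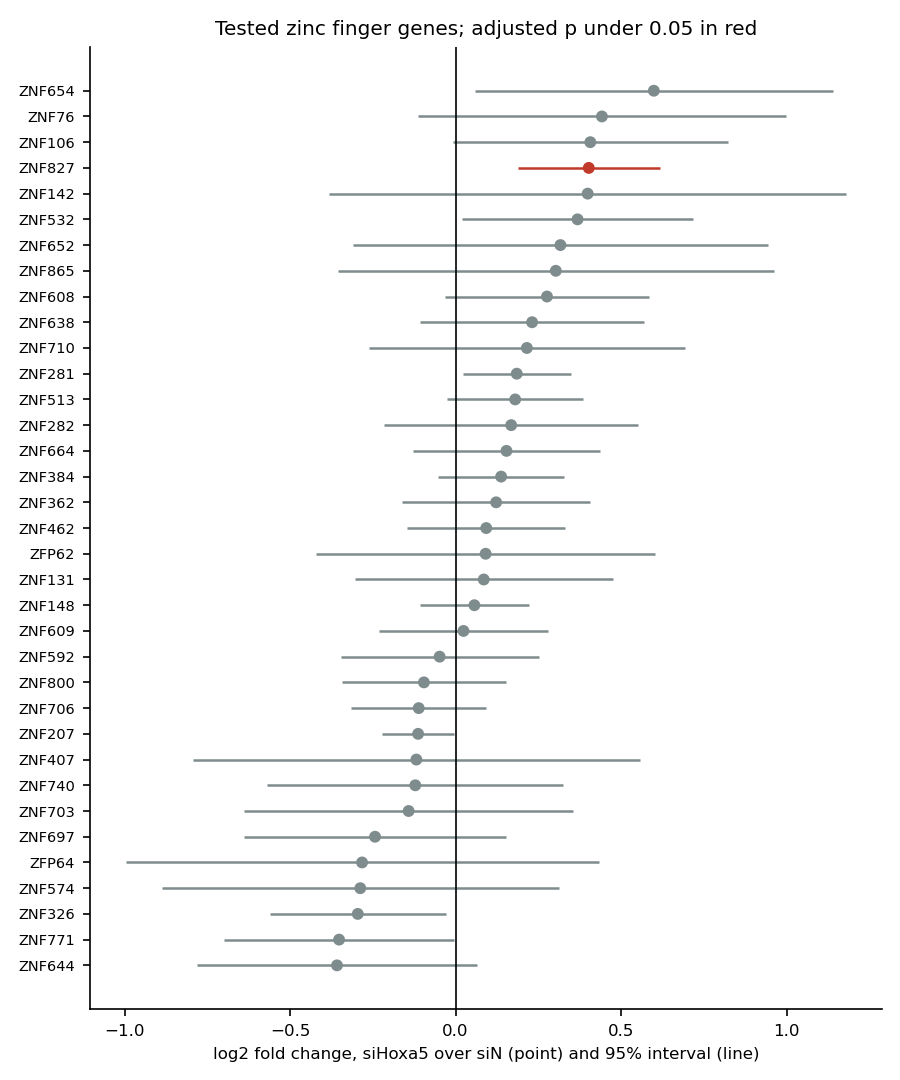
Log2 fold change of each of the 35 tested zinc finger genes, siHoxa5 over siN (horizontal axis), with its 95% interval from edgeR. The genes run from ZNF654 at 0.60 to ZNF644 at -0.36, and ZNF827, in red, has the adjusted p under 0.05.

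**Figure D3:**
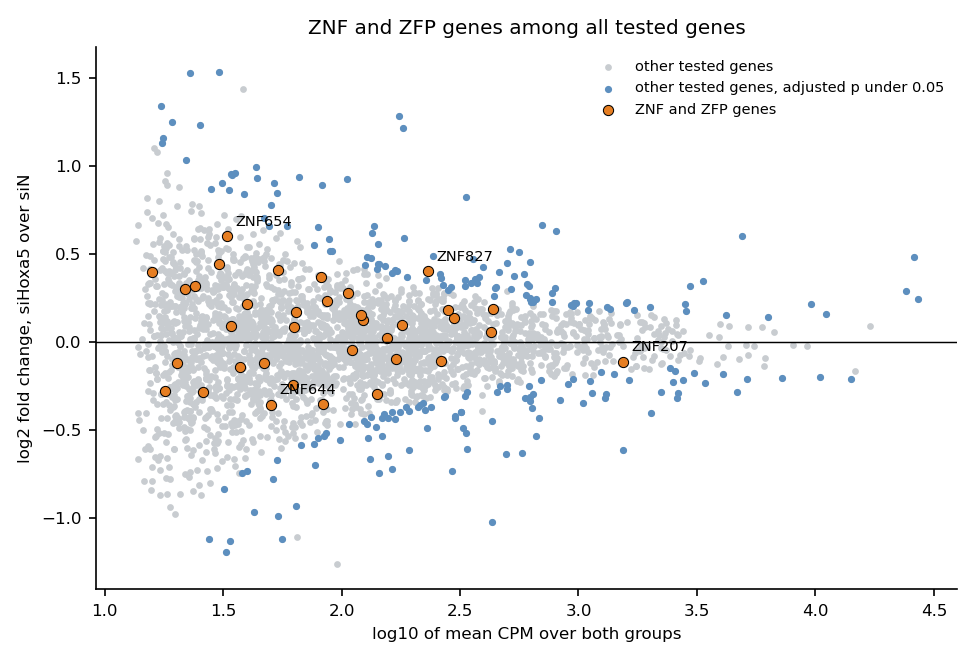
Log2 fold change, siHoxa5 over siN, against the log10 of the mean CPM for all 3020 tested genes. The zinc finger genes (orange) lie in the band of genes that were not called, apart from ZNF827, while other genes with an adjusted p under 0.05 (blue) reach further from 0.

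ZNF827 encodes a protein that brings the NuRD remodelling and deacetylase complex to telomeres in human cells through RBBP4. Its level was 271, 264, 290.2 and 233 CPM in siHoxa5 libraries 1 to 4, against 183, 183, 214 and 222 CPM in siN libraries 1 to 4. The lowest siHoxa5 library was above the highest siN library, by a margin smaller than the spread within either group. The mean was 265 ± 23.9 CPM in siHoxa5 and 200.4 ± 20.6 CPM in siN (SD, n = 4 each), a 1.32-fold difference (95% interval 1.14 to 1.53; log2 fold change 0.40, SE 0.11, adjusted p = 0.00817, edgeR). The call rested on single libraries and on the tool. The adjusted p was 0.0627 without siHoxa5 library 3, 0.0542 without siN library 1, 0.0527 without siN library 2 and 0.0560 with DESeq2. The log2 fold change stayed between 0.35 and 0.49 over the 15 alternatives, of which 11 kept the call, and it was 0.49 without siHoxa5 libraries 2 and 4.

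**Figure D4:**
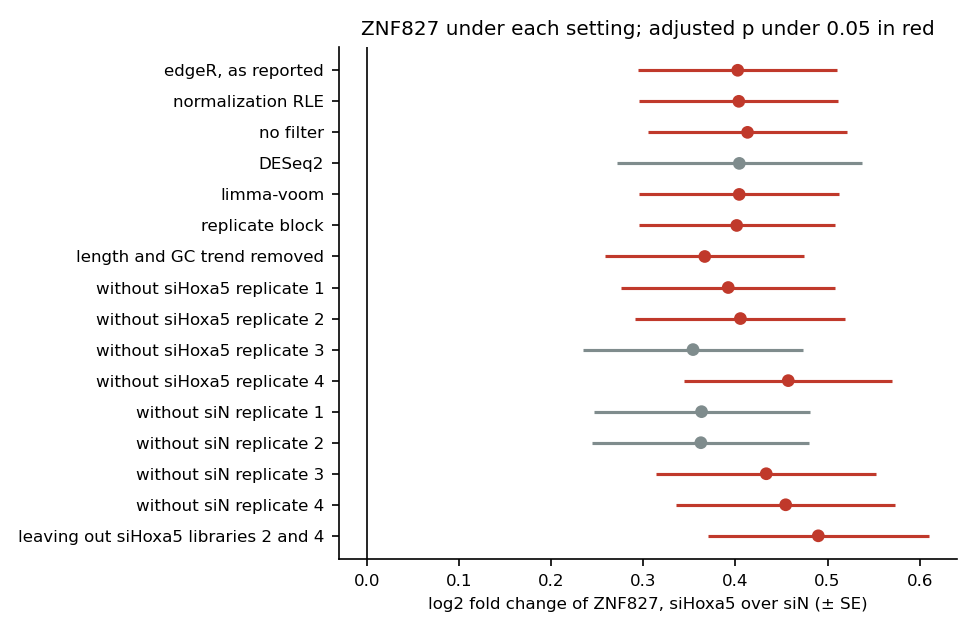
Log2 fold change of ZNF827, siHoxa5 over siN, with its standard error, as reported (top) and under 15 other settings. All lie between 0.35 and 0.49, with the 4 settings whose adjusted p is at or over 0.05 in grey.

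Among genes of NuRD and the KRAB corepressor machinery, the partners of many zinc finger proteins, 1 was called by edgeR. Of 33 listed genes, 27 had a count and 15 were tested. Of the 15, 1, or 6.67%, was higher and none lower, against 7.12% called over all tested genes. That share rests on 1 gene, too few to compare with all tested genes. The median log2 fold change of the list was 0.02. CHD3, a NuRD remodelling ATPase, was at 457, 523, 479 and 498 CPM in siHoxa5 libraries 1 to 4, against 355, 430.2, 390.4 and 407 CPM in siN libraries 1 to 4. Every siHoxa5 library was above every siN library, at 489 ± 27.9 CPM in siHoxa5 and 396 ± 31.6 CPM in siN (log2 fold change 0.30, SE 0.08, adjusted p = 0.00860). ATRX, a chromatin remodeller of heterochromatin and telomeres, had a log2 fold change of 0.23 (adjusted p = 0.200), the deacetylase HDAC1 -0.23 (adjusted p = 0.261) and the NuRD subunit MTA1 0.19 (adjusted p = 0.413). RBBP4 and CHD4, looked up after their values were seen, had log2 fold changes of 0.13 (SE 0.11, adjusted p = 0.570) and 0.01 (SE 0.08, adjusted p = 0.961). TRIM28 had 1 count over the 8 libraries and SETDB1 had 65, so the core of KRAB silencing could not be followed.

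Among the genes for DNA-binding and chromatin proteins, 28 of the 45 genes, 23 were tested, with a median log2 fold change of 0.09. Of the 23, 1, or 4.35%, was higher and none lower, against 7.12% called over all tested genes. A share resting on 1 gene cannot be compared with that of all tested genes. ZNF281 and ZNF148, which encode the GC-rich DNA-binding factors ZBP-99 and ZBP-89, had the most counts in this class. ZNF281 was at 493, 452, 445 and 471 CPM in siHoxa5 libraries 1 to 4, against 375, 432, 436 and 395 CPM in siN libraries 1 to 4. Its groups did not overlap, but the difference did not pass the test (465 ± 21.6 CPM in siHoxa5 and 409.6 ± 29.3 CPM in siN, log2 fold change 0.18, SE 0.08, adjusted p = 0.174). ZNF148 was at 475, 466, 416 and 386 CPM in siHoxa5 libraries 1 to 4, against 403, 443, 441 and 391 CPM in siN libraries 1 to 4. The siN values lay within the siHoxa5 range (log2 fold change 0.06, SE 0.08, adjusted p = 0.772), and with the length and GC trend of each library removed the log2 fold change was -0.042. The paralogs' difference was not tested. Their mouse transcripts share at most 15 identical bases in a row, and no 2 of the 44 matched genes share 50.

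In the other paralog pairs no gene was called. ZNF532 and ZNF592 encode subunits of the Z3 complex with ZNF687 and ZMYND8. ZNF532 was at 93.1, 111, 91.3 and 74.6 CPM in siHoxa5 libraries 1 to 4, against 90.7, 46.0, 80.3 and 68.9 CPM in siN libraries 1 to 4, with siN library 2 the lowest of all (log2 fold change 0.37, SE 0.18, adjusted p = 0.221). ZNF592 ranged from 89.1 to 132 CPM in siHoxa5 and from 101 to 124 CPM in siN (log2 fold change -0.05, SE 0.15, adjusted p = 0.907), with a sign that turned in 3 alternatives. ZMYND8, looked up after its values were seen, was at 96.7 ± 12.4 CPM in siHoxa5 and 123 ± 25.6 CPM in siN (log2 fold change -0.35, adjusted p = 0.174). ZNF532, ZNF592 and ZMYND8 lay on both sides of 0 and did not pass the test, and ZNF687, with 10 counts in all, was under the minimum of 40. ZNF609, a partner of the Integrator complex, was at 157 ± 25.4 CPM in siHoxa5 and 154 ± 14.0 CPM in siN (log2 fold change 0.02, adjusted p = 0.947). Its paralog ZNF608 was at 117 ± 21.3 CPM in siHoxa5 and 96.1 ± 6.60 CPM in siN (log2 fold change 0.28, adjusted p = 0.317, and 0.04 without siHoxa5 libraries 2 and 4). ZNF608 varied more between the siHoxa5 libraries than between the siN libraries, and the sign of ZNF609 turned in 4 alternatives. ZNF384, also known as NMP4, and its paralog ZNF362 had log2 fold changes of 0.14 and 0.12 (adjusted p = 0.467 and 0.701), at 313 ± 20.8 and 128 ± 22.4 CPM in siHoxa5 and 285 ± 11.6 and 118 ± 9.51 CPM in siN. ZNF76 was at 31.0, 45.5, 22.8 and 41.8 CPM in siHoxa5 libraries 1 to 4, against 32.3, 25.4, 22.04 and 23.0 CPM in siN libraries 1 to 4. It overlapped between groups (log2 fold change 0.44, SE 0.28, adjusted p = 0.404, and 0.07 without siHoxa5 libraries 2 and 4), and its paralog ZNF143, an activator of small nuclear RNA promoters, had too few counts to be tested.

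ZNF654 had the highest log2 fold change of the tested zinc finger genes but low counts. It was at 34.3, 49.2, 42.4 and 32.7 CPM in siHoxa5 libraries 1 to 4, against 26.1, 30.2, 12.6 and 35.2 CPM in siN libraries 1 to 4. siN library 4 stood above 2 of the siHoxa5 libraries and siN library 3 was far the lowest (log2 fold change 0.60, SE 0.27, adjusted p = 0.189). In the other direction ZNF644, which encodes a partner of the histone H3K9 methyltransferases G9a and GLP, was at 44.1, 47.4, 44.0 and 41.8 CPM in siHoxa5 libraries 1 to 4, against 49.2, 57.1, 64.5 and 56.7 CPM in siN libraries 1 to 4. All siHoxa5 values were below all siN values, on 249 counts in all (log2 fold change -0.36, SE 0.21, adjusted p = 0.363). Of the remaining genes of this class with at least 100 counts, ZNF462, ZNF800, ZNF131, ZNF740, ZNF703, ZNF710, ZNF574 and ZNF652 had log2 fold changes of -0.29 to 0.32 with adjusted p of 0.642 or more. ZNF574 was at 23.3 ± 8.84 CPM in siHoxa5 and 28.9 ± 7.38 CPM in siN, and ZFP64 at 16.1 ± 7.97 CPM in siHoxa5 and 19.9 ± 3.48 CPM in siN. After ZNF644 and ZNF326, they had the lowest log2 fold changes of the tested genes of the DNA-binding class (-0.29 and -0.28, adjusted p = 0.664 and 0.730). Both had a log2 fold change just above 0, at 0.032 and 0.10, without siHoxa5 libraries 2 and 4.

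**Figure D5:**
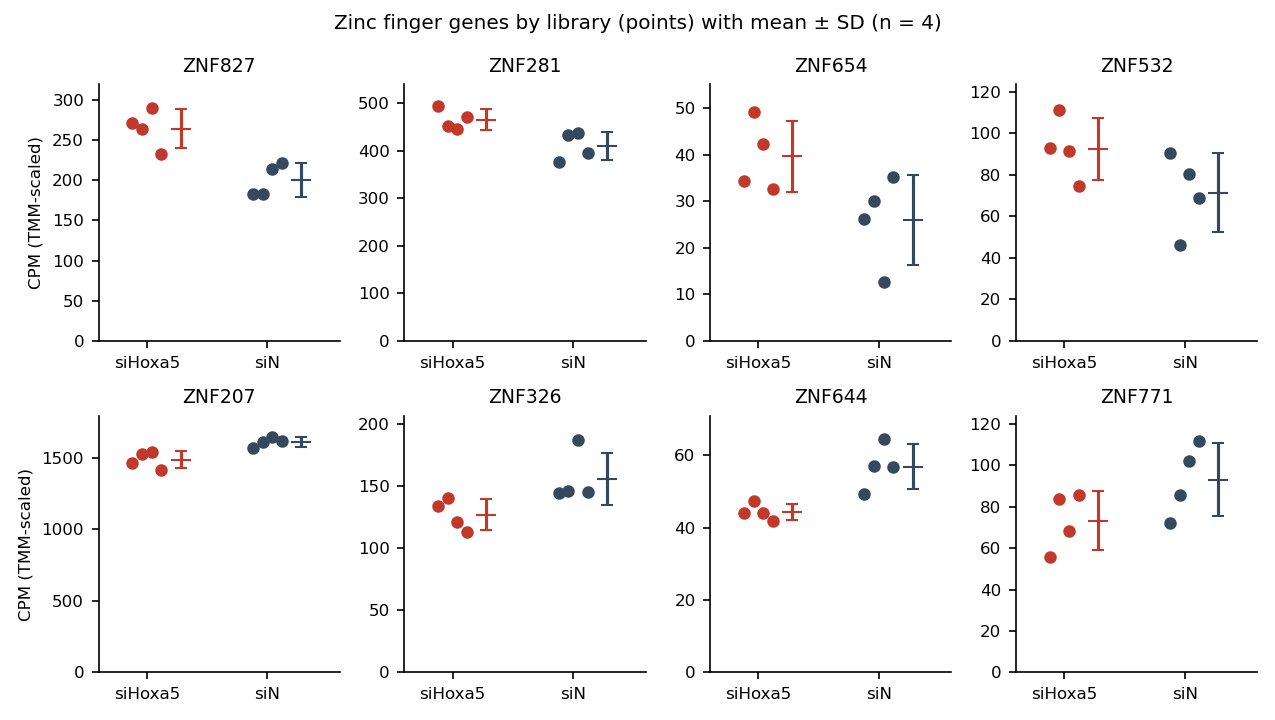
CPM of 8 zinc finger genes in each library (points), with siHoxa5 left and siN right, and the mean ± SD of the 4 libraries beside them. ZNF827 and ZNF281 are higher in all siHoxa5 libraries, ZNF207, ZNF326 and ZNF644 are lower in all of them, and ZNF654, ZNF532 and ZNF771 overlap.

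Genes whose proteins work on RNA or the spindle numbered 6 of the 45, of which 5 were tested and none called by edgeR, against 7.12% of all tested genes, with a median log2 fold change of -0.11. With so few genes, the 2 of 5 with an unadjusted p under 0.05 cannot be set against the 19.6% of all tested genes. ZNF207 encodes BuGZ, which binds BUB3 and loads it on kinetochores. It was at 1459.7, 1528, 1542.5 and 1413 CPM in siHoxa5 libraries 1 to 4, against 1564, 1606.5, 1646 and 1613 CPM in siN libraries 1 to 4. All siHoxa5 libraries lay below all siN libraries, at 1486 ± 60.5 CPM in siHoxa5 and 1607.5 ± 33.8 CPM in siN, but the difference was small and did not pass the test (0.925-fold, 95% interval 0.858 to 0.997; log2 fold change -0.11, SE 0.05, adjusted p = 0.225). ZNF207 held 27.7% of the counts of the 45 genes. BUB3, looked up after its values were seen, was at 141 ± 16.6 CPM in siHoxa5 and 122 ± 13.8 CPM in siN (log2 fold change 0.21, SE 0.14, adjusted p = 0.425).

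ZNF326 encodes a subunit of the DBIRD complex, which couples elongation by RNA polymerase II to splicing. It was at 134, 140.3, 121 and 113 CPM in siHoxa5 libraries 1 to 4, against 145, 146, 187 and 146 CPM in siN libraries 1 to 4. The groups did not overlap, and siN library 3 stood far above the other siN libraries (log2 fold change -0.30, SE 0.13, adjusted p = 0.187). ZNF106, which encodes an RNA-binding protein whose loss in mice causes neuromuscular degeneration, was at 57.1, 58.3, 71.7 and 58.2 CPM in siHoxa5 libraries 1 to 4, against 46.1, 39.7, 37.8 and 61.3 CPM in siN libraries 1 to 4. siN library 4 was above 3 siHoxa5 libraries (log2 fold change 0.41, SE 0.21, adjusted p = 0.264). ZNF638, or NP220, which recruits the HUSH complex to unintegrated retroviral DNA in human cells, was at 94.0 ± 23.6 CPM in siHoxa5 and 79.4 ± 7.05 CPM in siN (log2 fold change 0.23, adjusted p = 0.498), and at a log2 fold change of -0.092 without siHoxa5 libraries 2 and 4. ZNF706, with 1 finger pattern, was at 254 ± 32.6 CPM in siHoxa5 and 273 ± 12.8 CPM in siN (log2 fold change -0.11, adjusted p = 0.612).

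Of the 12 genes in neither role class, 8 were tested and none called by edgeR, against 7.12% of all tested genes. An unadjusted p under 0.05 was found for 1 of the 8, or 12.5%, against 19.6% of all tested genes. So few genes cannot be compared with all tested genes. ZNF513, mutated in a form of human retinitis pigmentosa, was at 238, 328, 303 and 329 CPM in siHoxa5 libraries 1 to 4, against 217, 251, 315 and 273 CPM in siN libraries 1 to 4. Library 1 was the lowest of each group, and the groups overlapped (log2 fold change 0.18, adjusted p = 0.339). ZNF771 was at 55.5, 83.8, 68.5 and 85.5 CPM in siHoxa5 libraries 1 to 4, against 72.3, 85.7, 102 and 112 CPM in siN libraries 1 to 4 (log2 fold change -0.35, SE 0.18, adjusted p = 0.243). ZNF697 had a log2 fold change of -0.24 (adjusted p = 0.551) and ZNF142, with 36 finger patterns and 77 counts in all, 0.40 (SE 0.39, adjusted p = 0.638). Of the 35 tested genes 5, or 14.3%, had groups that did not overlap, 2 higher and 3 lower in siHoxa5, against 12% of all tested genes (6.19% higher and 5.76% lower).

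The 10 genes that could not be tested had 40 to 69 counts over the 8 libraries and between 1 and 13 in any library. They were ZNF143, ZNF346, ZNF35, ZNF423, ZNF449, ZNF503, ZNF521, ZNF655, ZNF711 and ZNF821. Fitted without the filter on low counts, their log2 fold changes lay between -0.88 and 0.46 with standard errors of 0.42 to 0.55, 6 above 0 and 4 below, and the smallest adjusted p was 0.568. None had groups without overlap. Differences under 2-fold were not detectable in them at this depth. ZNF423 and ZNF521, paralogs that bind EBF factors in fat cell and blood cell precursors, had fitted values of -0.15 and 0.46, each with a standard error of 0.43.

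Calls were too few to set against the number of fingers. Of 24 tested genes with at least 5 finger patterns, 1, or 4.17%, was higher and none lower (median log2 fold change 0.13). Of 11 with fewer, none was called (median 0.02), against 7.12% called over all tested genes. An unadjusted p under 0.05 was found for 4 of the 24 (16.7%) and 3 of the 11 (27.3%). Over all tested genes it was found for 19.6%. Per kilobase of the longest coding transcript, ZNF207 was the most abundant, at 513 CPM per kb in siHoxa5 and 555 in siN, followed by ZNF513 at 135 in siHoxa5 and 118 in siN, ZNF384 at 100.0 in siHoxa5 and 90.9 in siN and ZNF281 at 94.2 in siHoxa5 and 83.0 in siN. The order of these 4 was the same in both groups, and their libraries' ranges allow no order to be read between ZNF384 and ZNF281. ZNF827 was at 34.9 CPM per kb in siHoxa5 and 26.4 in siN. The median coefficient of variation over the 4 libraries of a group was 16.9% in siHoxa5 and 13.8% in siN, and it was larger in siHoxa5 for 16 of the 35 genes.

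siHoxa5 library 2 held the highest value of 10 of the 35 tested genes, or 28.6%, against 16.3% of all tested genes, and siHoxa5 library 4 held the lowest value of 10, also 28.6%, against 16.4% of all tested genes. siN library 2 held the highest value of none. Without siHoxa5 libraries 2 and 4 the log2 fold change moved by over 1.5 times, with its sign kept, in ZNF131 (0.19), ZNF148 (0.09), ZNF362 (0.20), ZNF462 (0.03), ZNF513 (0.04), ZNF652 (0.20), ZNF697 (-0.38), ZNF706 (-0.24) and ZNF771 (-0.58), as well as in ZNF76 and ZNF608, and none of them was called. Longer transcripts had higher log2 fold changes, with a Spearman correlation of 0.22 over 2960 genes with a length and 0.41 over the 35, values that share the 8 libraries and are given as a description. With the trend on length and GC removed the zinc finger genes' median was 0.09, with 20 above 0 and 15 below, and ZNF827 kept a log2 fold change of 0.37 (adjusted p = 0.0210).

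HOXA5 is a homeobox factor, a class that binds sites with a TAAT core. The motif TAATTA, which reads the same on both strands, occurs in 5.29% of 32851 RefSeq mouse promoters, taken from 250 bases before to 50 after a start, and in 1 of 46 promoters of 30 of the zinc finger genes. That promoter belongs to Zfp207 (chr11:80383029-80383328, plus strand), and no TAATTA lies in the listed window of Zfp827 (chr8:79028187-79028486, plus strand). The shorter TAAT core does lie in that Zfp827 window, read on the other strand as ATTA. How often the core alone occurs in all promoters was not counted, and binding by HOXA5 was not tested. The zinc finger promoters had a median GC content of 65.3%, against 52.7% for all promoters.

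Listed zinc finger genes outside the ZNF and ZFP spelling were not called by edgeR. Of 64 C2H2 factors with other names and at least 40 counts, 51 were tested and none was called (median log2 fold change 0.03), against 7.12% of all tested genes. An unadjusted p under 0.05 was found for 4 of them, or 7.84%, against 19.6% of all tested genes. The smallest p in that class were those of PATZ1 (log2 fold change 0.39, adjusted p = 0.122) and the growth response factors EGR3 (-0.74, adjusted p = 0.125) and EGR2 (-0.61, adjusted p = 0.128). Of 12 genes with related symbols, including the CCCH type, 11 were tested and none was called (2 with an unadjusted p under 0.05), among them ZFP36L1, whose protein promotes decay of AU-rich mRNAs, at 1111 ± 51.1 CPM in siHoxa5 and 1225 ± 36.8 CPM in siN (log2 fold change -0.14, SE 0.06, adjusted p = 0.140). DESeq2 and limma-voom called none in either class, nor among the RNA and spindle genes, the genes in neither role class and those with fewer than 5 finger patterns. ZFP36 itself, the founder of the AU-rich decay family, had no count, and of 18 listed genes of that family and its targets 4 were tested and none was called by edgeR, DESeq2 or limma-voom (2 with an unadjusted p under 0.05 by edgeR). ZNF746, or PARIS, a repressor, in neurons, of the gene for the mitochondrial coactivator PGC-1 alpha, had 4 counts in all and could not be followed. PPARGC1A, the gene for PGC-1 alpha, was at 254 ± 41.0 CPM in siHoxa5 and 109.6 ± 14.1 CPM in siN (log2 fold change 1.21, SE 0.13, adjusted p = 9.64e-15). NRF1, of the same list, had a log2 fold change of 0.05 (adjusted p = 0.907), and TFAM had 1 count over the 8 libraries. A link between ZNF746 and PPARGC1A was not tested.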

How the data were processed

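RNA of 8 libraries, 4 siHoxa5 and 4 siN, was analysed from estimated counts per gene symbol deposited by the authors, not normalized by them: whole numbers except in 4 rows that end in 0.5, none of them a gene described here. The submitters' processing notes name the mm10 build and the tools STAR 2.6.1b, HTSeq, FastQC 0.11.8 and R 3.5.3. The annotation and the handling of strand and of multiply matching reads are not stated in the sources used here. Since the kit in the labels marks no strand, a gene and an overlapping or antisense gene cannot be told apart. In 27 rows, with 0.320% of the counts, the symbol had become a date. Groups and repeat numbers come from the sample titles. Totals of 560190 to 658192 counts limit the precision: log2 fold changes had a median standard error of 0.17, and intervals for counts cover counting error only.

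Counts were rounded and tested with edgeR 4.0.16 (quasi-likelihood, robust, TMM, filterByExpr with a minimum count of 10 and total of 15, R 4.3.3), with Benjamini-Hochberg adjustment over 3020 genes, a threshold of 0.05 and the group as the only term. The test was checked on simulated data. All adjusted p-values in the text are from it unless another tool is named. Alternatives were RLE scaling, no filter, DESeq2 1.42.0, limma-voom 3.58.1, the repeat number as a block, removal of trends on length and GC, leaving out each library, leaving out siHoxa5 libraries 2 and 4, and minima of 20 and 80 counts.

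The zinc finger genes, gene lists and tests were chosen with earlier results of these data known. Genes named are those past the threshold, those without overlap between groups at an adjusted p under 0.25, the 6 largest log2 fold changes in each direction, the 8 with the most counts, those nearest the minimum of 40, genes of the role lists with at least 100 counts and up to 4 of each partner list with the smallest p. ZNF644, without overlap but at a larger p, is named by its fold change. Endothelial, smooth muscle, macrophage and mesothelial markers each summed, list by list, to at most 49.2 CPM in any library. Genes with a count were 2 of 6, 3 of 6, 2 of 6 and 1 of 4 listed, in that order. Genes, exons and coding sequences are from GENCODE M21 and promoters from RefSeq GRCm38.p6. Fingers were counted as codon patterns in the coding sequence because no protein sequences were used here.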

Additional observations from a re-analysis of the deposited data

Results flagged for a closer look

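In 6 of 90 groups of 4 libraries, 1 library of a zinc finger gene stood far from the other 3 by Dixon's ratio, and chance gives about 1 in 20 groups. ZNF106 was at 71.7 CPM in siHoxa5 library 3, against 57.1 to 58.3 CPM in the other siHoxa5 libraries. ZNF462 was at 162 CPM in siHoxa5 library 1, against 192 to 195 CPM in the others. ZNF503 was at 13.1 CPM in siHoxa5 library 1, which is 8 counts, against 4.89 to 5.46 CPM in the others. ZNF326 was at 187 CPM in siN library 3, against 145 to 146 CPM in the other siN libraries. ZNF143 was at 11.1 CPM in siN library 2, which is 7 counts, against 7.66 to 7.87 CPM in the others. ZNF711 was at 6.15 CPM in siN library 1, which is 4 counts, against 9.19 to 9.52 CPM in the others. These were spread over siHoxa5 libraries 1 and 3 and siN libraries 1, 2 and 3.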

How the results depend on the processing

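Over all genes 215 were called, against 112 with DESeq2, 143 without siHoxa5 libraries 2 and 4 and 145 to 260 with each library left out in turn. Of the zinc finger genes, 1 was higher, or 0 with DESeq2 and 0 to 1 with a library left out, and none was lower under any setting, with a minimum of 20 or 80 counts too. Of 448 alternative values of 30 named genes, 429 kept their direction and side of the threshold, 4 lost the call of ZNF827, at log2 fold changes of 0.40 with DESeq2, 0.35 without siHoxa5 library 3 and 0.36 each without siN library 1 or 2, and 15 turned sign. DESeq2 gave no adjusted p for ZFP64 and ZNF142, so these 2 values are left out. Without siHoxa5 libraries 2 and 4 these were ZFP64 at 0.10, ZNF574 and ZNF592 at 0.032, ZNF609 at -0.11, ZNF638 at -0.092 and ZNF740 at 0.00079. With length and GC trends removed they were ZNF148 at -0.042 and ZNF609 at -0.010. With 1 library left out, ZNF131 ranged from -0.0093 to 0.23, ZNF592 from -0.16 to 0.033, ZNF609 from -0.086 to 0.096 and ZNF740 from -0.23 to 0.068. None of these was called with any sign, and the cause was not tested. Deviations of same-numbered libraries from their group means correlated at -0.020 to 0.066. With the counting noise of such low totals, these values cannot show whether the repeat numbers pair the libraries. With the replicate block 250 genes were called, 1 zinc finger gene higher and 0 lower, and ZNF827 had an adjusted p of 0.00454. Low totals limit what could be seen in genes under about 100 counts.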
